A study of Mus musculus with 4 samples.

Results

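Npas4, the genes of its dimer partners Arnt and Arnt2, and its relatives Npas1, Npas2 and Npas3 were examined for occupancy by the BAF (SWI/SNF) chromatin remodelling complex in mouse cortical neurons. The 6 genes were chosen by name, and every enriched region, called an island, that lay in a gene or within 50 kb of it was taken: 22 of 20966 islands after KCl and 1 of 711 islands in basal neurons. Wild-type neurons were cultured from E16.5 cortex and harvested on day 6 in vitro, either after 1 h in 50 mM KCl, which depolarizes them, or at the basal KCl level. To silence spontaneous firing, depolarized cultures had been given TTX (1 µM), which blocks sodium channels, and APV (100 µM), which blocks NMDA receptors, on day 5. Whether basal cultures were pretreated in the same way is not given in the labels. Chromatin was immunoprecipitated (IP) with the J1 antibody, which recognizes BRG1 and BRM, the alternative ATPases of the complex, so both proteins contribute to every value. There was 1 IP library and 1 input library per condition, so KCl and basal values are set side by side without replicates and without p-values.

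NPAS4 is a transcription factor of the bHLH-PAS family whose gene is switched on within minutes by calcium entry in neurons. Factors of this family bind DNA as dimers, and NPAS4 pairs with ARNT or ARNT2, general partners that are made without stimulation. NPAS2 pairs with BMAL1 in the circadian clock, and NPAS1 and NPAS3 are factors of neuronal development that also use ARNT proteins as partners.

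For each island the reads from the IP and from a control library are given, with the authors' fold, IP over control reads corrected for library size. Brackets after a fold hold a 95% exact (Clopper-Pearson) interval in which both counts vary. It covers counting error only, and with 1 IP library per condition it holds no variation between cultures. Nor were molecular identifiers available to mark duplicate reads. Islands of the KCl list held 1433200 IP and 400612 control reads, and those of the basal list 142021 IP and 130865 control reads. The total depth of the libraries is unknown. As a check of the labelled cell type, KCl islands lay at a gene end (no more than 2 kb away) at 7 of 8 cortical neuron markers, 1 of 5 interneuron, 2 of 5 astrocyte, 2 of 5 oligodendrocyte lineage and 0 of 5 microglia markers, against 25.2% of all protein-coding genes. Of the same markers, 0 had a basal island at a gene end (0.411% of all genes did), so the check covers the KCl culture only. Occupancy is no measure of expression, and the small counts for the other cell types say little about their presence. The cultures were bulk samples, so a change in the share of cells with bound complex and a change in binding per cell cannot be told apart.

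The promoters of Npas4 and Arnt are shown because both carry the core of the cyclic AMP response element, the site of CREB, while an island lay over the start of Npas4 only. Capitals mark TGACG or its reverse complement CGTCA. Sequences are the 250 bases before the start in RefSeq (GRCm38.p6), 5′ to 3′ on the gene's strand.
Npas4, chr19:4989972-4990221, minus strand: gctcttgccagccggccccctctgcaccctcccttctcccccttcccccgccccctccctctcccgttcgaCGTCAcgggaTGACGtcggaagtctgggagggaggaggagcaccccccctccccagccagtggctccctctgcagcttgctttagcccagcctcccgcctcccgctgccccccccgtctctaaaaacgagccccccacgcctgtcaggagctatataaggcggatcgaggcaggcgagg
Arnt, chr3:95434140-95434389, plus strand: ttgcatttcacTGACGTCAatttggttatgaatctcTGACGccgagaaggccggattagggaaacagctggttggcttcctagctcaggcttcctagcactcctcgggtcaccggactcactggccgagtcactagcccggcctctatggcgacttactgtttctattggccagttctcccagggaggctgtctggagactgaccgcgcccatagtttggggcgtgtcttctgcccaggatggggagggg

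Npas4 held TGACG at 2 positions, from base -179 to -175 and from base -169 to -165, counted back from the start. Arnt held it at 3 positions, and those from -239 to -232 overlap to form the full palindrome TGACGTCA. On either strand, TGACG occurred in 20.2% of 21263 promoters of protein-coding genes, at 2 or more positions in 4.85% and at 3 or more in 0.917%. The full TGACGTCA occurred in 1.92%. Arnt2, Npas1, Npas2 and Npas3 held neither in this window.

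The promoters of Npas2 and Npas1 are shown because each holds TCGTG, the core bound by NPAS4 dimers, again with an island over the start of the first gene only. Capitals mark TCGTG or its reverse complement CACGA.
Npas2, chr1:39194022-39194271, plus strand: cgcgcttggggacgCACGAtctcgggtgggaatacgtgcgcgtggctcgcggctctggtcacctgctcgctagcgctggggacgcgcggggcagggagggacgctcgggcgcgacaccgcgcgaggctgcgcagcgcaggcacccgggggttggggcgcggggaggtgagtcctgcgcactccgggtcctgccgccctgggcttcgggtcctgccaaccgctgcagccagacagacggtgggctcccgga
Npas1, chr7:16476781-16477030, minus strand: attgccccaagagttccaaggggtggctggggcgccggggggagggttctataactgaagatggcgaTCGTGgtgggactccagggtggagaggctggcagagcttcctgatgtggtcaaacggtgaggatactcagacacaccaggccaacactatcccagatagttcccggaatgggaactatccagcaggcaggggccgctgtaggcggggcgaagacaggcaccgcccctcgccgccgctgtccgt

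TCGTG was present in 14.7% of all promoters and absent from this window of Npas4, Arnt, Arnt2 and Npas3. None of the 6 windows held the E-box CACGTG (6.63% of all promoters), the AP-1 site TGANTCA (6.13%), the serum response CArG box (1.39%) or the MEF2 site (2.61%). The promoters were rich in G and C, from 57.2% at Arnt to 75.6% at Arnt2, where the median of all promoters was 55.6%. A match of letters is a description and not a bound site.

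After KCl, 4 of the 6 genes had an island in the gene or within 50 kb, namely Npas4, Arnt2, Npas2 and Npas3, and Arnt and Npas1 had none. This share stands near that of all protein-coding genes, of which 59.4% had a KCl island in such a window. All 4 also had a KCl island over the transcription start, which 22.1% of 17492 genes with a start in the promoter table had. Likewise 4 of 6 had one at a gene end, against 25.2% of all genes. Taking only islands of at least 2-fold, 4 of the 6 genes kept one in the window (38.2% of all genes), and so did 4 with an FDR of at most 1e-05 (46.5%). In basal neurons only Arnt2 had an island, against 2.94% of all genes, and 0 of the 6 had a basal island at a gene end (0.411% of all genes).

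**Figure D1:**
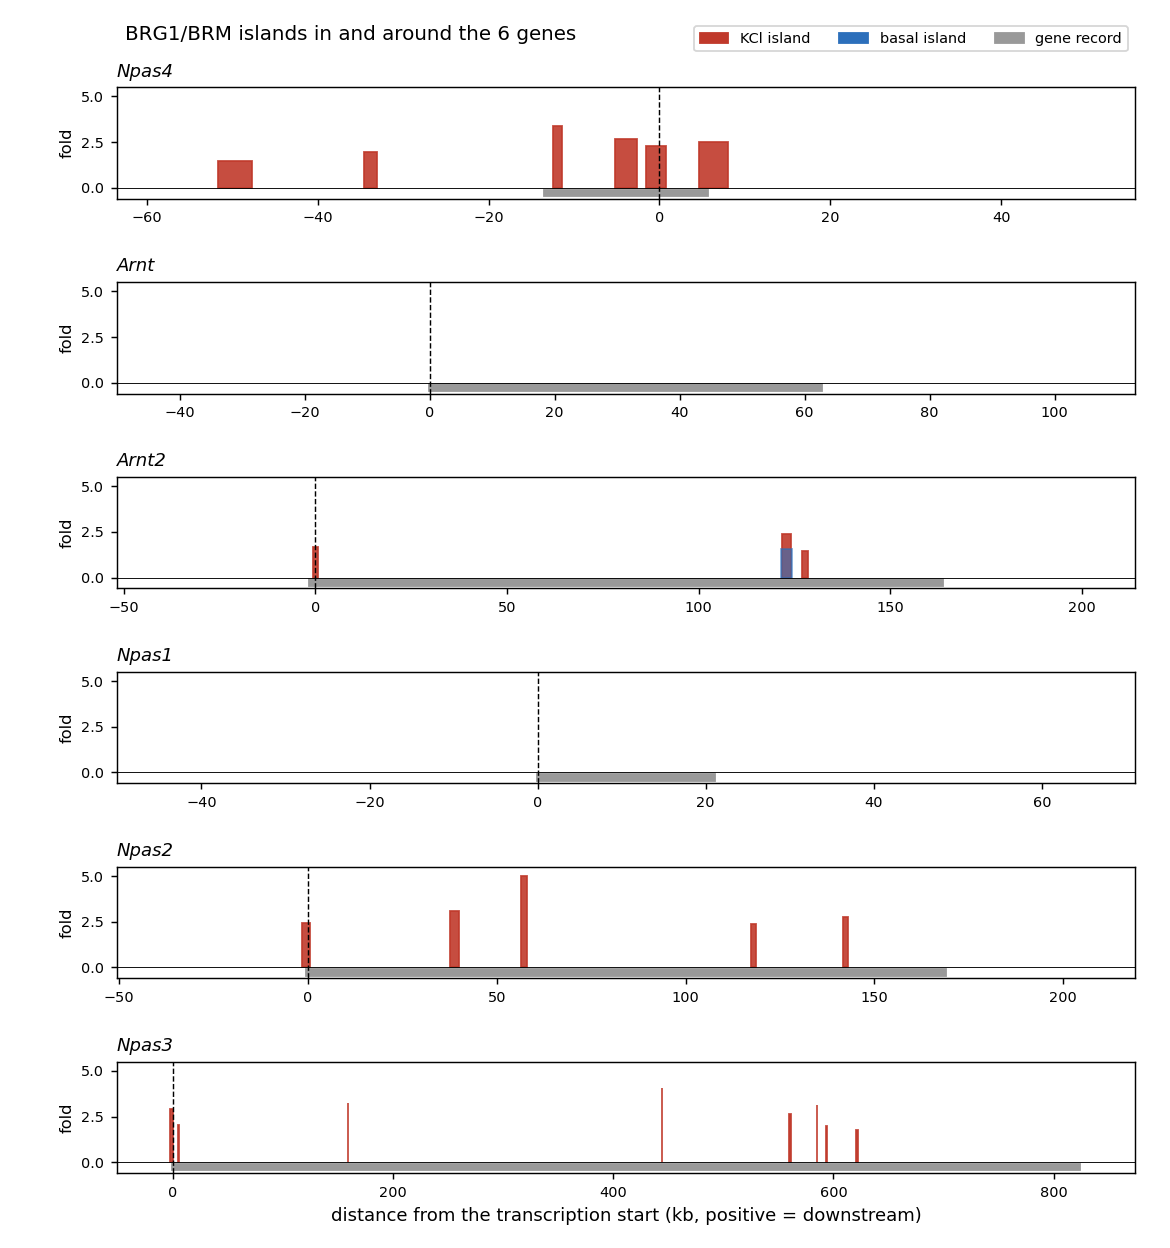
Each panel shows 1 gene on its own x scale, with distance from the transcription start in kb along the x axis, read in the direction of transcription, and the fold of each island as bar height (red KCl, blue basal, grey the gene record). Islands of Npas4 crowd around its start, with 4 in 20.4 kb, while those of Npas2 and Npas3 are spread over long gene bodies and the panels of Arnt and Npas1 are empty.

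Npas4 carried the closest group of islands of the family. On chromosome 19 (mm10), 4 KCl islands touched the gene record from 4984353 to 5003439. The record runs 13.5 kb upstream of the transcription start of the promoter table at 4989971, and the distances below are from that start.

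Over the start itself lay an island of 2400 bp (4989201 to 4991600) with 73 IP and 20 control reads, a 2.29-fold enrichment [1.38 to 3.97]. This island also covers the promoter sequence shown above. Immediately upstream, centred 3.93 kb before the start, an island of 2600 bp (4992601 to 4995200) contained 111 IP and 26 control reads (2.68-fold [1.74 to 4.28]). The island with the largest fold was the narrowest, 1000 bp at 5001401 to 5002400, where 43 IP reads stood against 8 control reads (3.38-fold [1.57 to 8.31]). Its nearer edge lay 11.4 kb upstream of the start, so it counts as lying at a gene end only because the record extends that far.

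The last of the group covered the downstream end of the gene (4982001 to 4985400), where 103 IP reads stood against 26 control reads (2.49-fold [1.61 to 3.99]). The 4 intervals overlap one another, and the order of the 4 islands by fold was not tested. Together they held 330 IP and 80 control reads over 9.4 kb, a pooled 2.59-fold enrichment [2.02 to 3.35]. The gaps between neighbours were 3.8, 1 and 6.2 kb.

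At least 4 KCl islands within 13 kb of the start were found at 0.0515% of genes, 9 in all. The others were Gabarap, Igsf3, Junb, Midn, Pou3f3, Prkaa2, Rgs13 and Zbtb18. Both the minimum of 4 and the distance were chosen after the Npas4 islands were seen, so Npas4 was bound to be among the 9. A count of islands depends on where the caller splits them, and by the length covered within 13 kb, 57 genes or 0.326%, Npas4 among them, had at least as much as Npas4. Counted over the whole window of 119 kb, Npas4 had 5.04 islands per 100 kb, where the median gene had 0.748 and 99.7% of genes had fewer. The density was 1.86 per 100 kb at Npas2, 1.13 at Arnt2 and 0.866 at Npas3, above 85.2%, 71.5% and 57.0% of genes in that order, and 0 at Arnt and Npas1. With only the 4 islands that touch Npas4 counted, its density was 3.36 per 100 kb, above the whole-window density of 97.9% of genes. The genes in these comparisons of density were not matched for length.

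The other 2 islands in the Npas4 window overlapped neighbouring genes. Inside Slc29a2, which encodes a nucleoside transporter, an island (5023001 to 5024600) held 50 IP and 16 control reads (1.96-fold [1.10 to 3.69]). An island of 4000 bp over B4gat1, a glycosyltransferase gene, and Brms1 (5037601 to 5041600) held 103 IP and 44 control reads (1.47-fold [1.02 to 2.14]), the lowest fold of the window. It lay 34.2 kb from the Npas4 record and was the farthest island taken by the rule.

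No basal island was called at Npas4, and the nearest was 842 kb away. The basal list holds no island of fewer than 18 IP reads, and absence from it does not show absence of the complex.

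Of the partner genes, Arnt (chromosome 3, 95434367 to 95497240) had no island in either list. Its nearest KCl island lay 118 kb away, with 45 IP and 13 control reads (2.17-fold [1.15 to 4.39]). Among genes of 0.8 to 1.2 times its length, 70.8% had a KCl island in such a window.

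Arnt2, which encodes the ARNT paralogue found mainly in brain and kidney, spans chromosome 7 from 84246274 to 84411741 and had 3 KCl islands. The island over its start (84409201 to 84410600) held 46 IP and 17 control reads, and its 1.70-fold value had an interval that includes 1 [0.956 to 3.16]. Far inside the gene, 123 kb downstream of the start, an island (84286001 to 84288400) held 122 IP and 32 control reads (2.39-fold [1.61 to 3.65]), the most IP reads of any island at the 6 genes. A weak island beside it (84281401 to 84283000) held 48 IP and 21 control reads (1.44-fold [0.843 to 2.52]).

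The only basal island of the family lay at the same place in Arnt2. The KCl island held 50.8 IP and 13.3 control reads per kb, and the basal island (84285801 to 84288600) held 23.9 IP and 17.5 control reads per kb, from 67 IP and 49 control reads (1.55-fold [1.06 to 2.29]). KCl islands covered 85.7% of the basal one. It was not among the basal islands of at least 2-fold, which 1.01% of all genes had in such a window, nor among those with an FDR of at most 1e-05 (0.772%). Control density there stood at percentile 90.3 of the KCl list and 59.4 of the basal list, and its part in the calls was not tested. The intervals of the KCl and basal folds overlap, and the folds carry different corrections for library size. Which input served as control for each is not given.

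Of the relatives, Npas1 (chromosome 7, 16455721 to 16476822) had no island. The nearest KCl island lay just outside the window, 51.3 kb away at 16399201 to 16404400, and held 152 IP reads beside 66 control reads (1.45-fold [1.08 to 1.96]). It overlaps the record of Zc3h4, which encodes a zinc finger protein. Of genes close to Npas1 in length, 57.3% had an island within 50 kb.

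Npas2 (chromosome 1, 39193702 to 39363240) had 5 KCl islands, all touching the gene, and none in the basal list. At 39192601 to 39194800 an island over the start held 58 IP and 15 control reads (2.43-fold [1.36 to 4.61]). The other 4 lay 38.7 to 142 kb downstream, with 44 to 83 IP reads and folds of 2.39 to 5.02. Highest of these, and of all member islands, was the one at 39250801 to 39252200, which lies 57.2 kb into the gene and held 56 IP and 7 control reads (5.02-fold [2.28 to 13.1]). Its control density of 5 reads per kb was at percentile 5.61 of the KCl list, and its IP density of 40 reads per kb at percentile 62.3.

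Npas3 (chromosome 12, 53248026 to 54072173) is the longest gene of the family at 824 kb and had 8 KCl islands, all touching the record, with none in the basal list. That number is not high for its length, since 92 of 135 genes of at least 0.8 times its length had 8 or more, with a median of 10. The island over the start (53246401 to 53249000) held 69 IP and 15 control reads (2.89-fold [1.64 to 5.44]). A second island 5.37 kb downstream (53253001 to 53254600) held 45 IP and 14 control reads (2.02-fold [1.09 to 3.98]) and also overlapped the lncRNA gene Gm51419. The remaining 6 lay 159 to 621 kb into the gene. The strongest of them (53692401 to 53693200) held 52 IP and 8 control reads (4.08-fold [1.93 to 9.95]). The last 3 lay within the lncRNA gene Gm35614, and the weakest of these (53869001 to 53870400) held 45 IP and 16 control reads, with an interval that includes 1 (1.77-fold [0.979 to 3.35]).

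**Figure D2:**
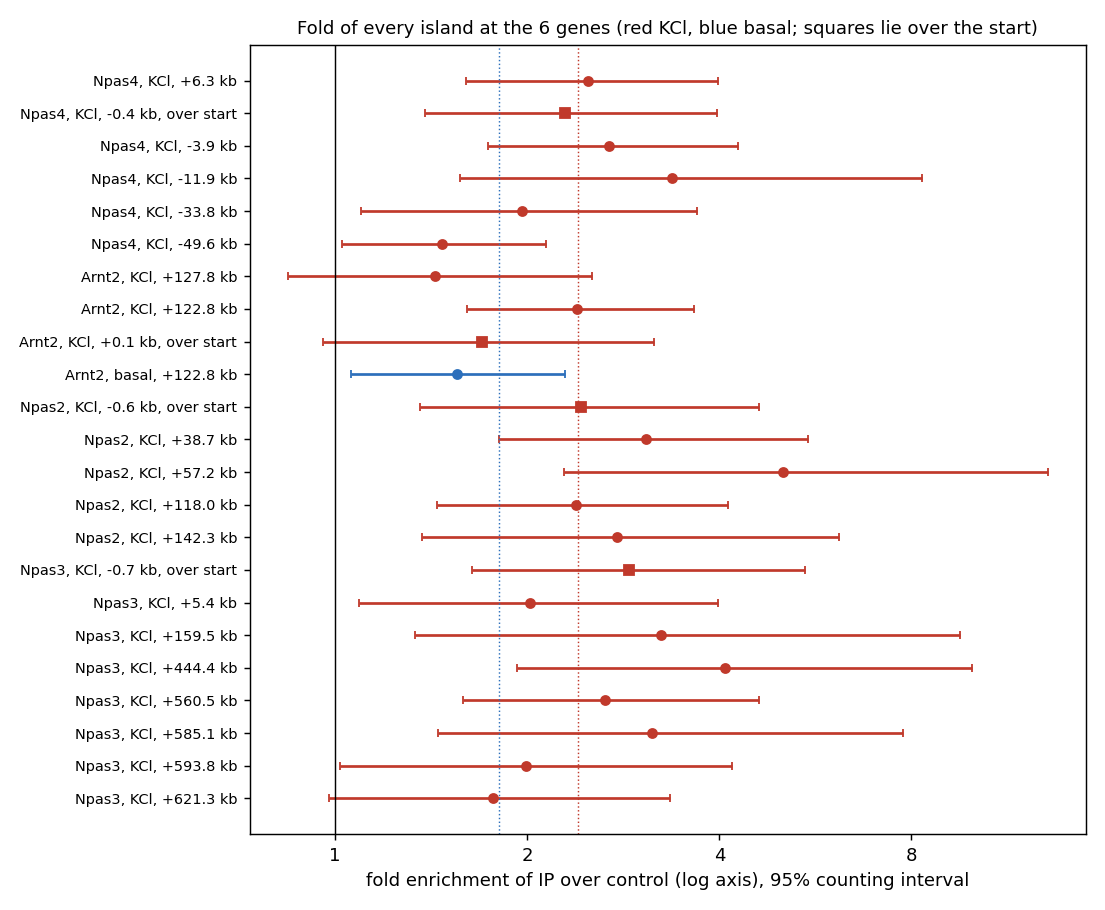
Fold of IP over control for each island on a log axis, with 95% counting intervals, labelled by gene, condition and distance of the island's centre from the start. Squares lie over a start, and dotted lines mark the medians of the KCl (2.40) and basal (1.80) lists. Intervals overlap widely between genes, and those of 3 KCl islands, at Arnt2 and Npas3, reach 1.

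The contrast between activity-induced Npas4 and the other family members was drawn within the KCl list, where the library correction cancels. By the ratio of IP to control reads, the Npas4 start island could not be told apart from any of the 16 KCl islands of Arnt2, Npas2 and Npas3. Its ratio over theirs ran from 0.456 [0.153 to 1.23] for the Npas2 island 57.2 kb into the gene up to 1.60 [0.735 to 3.46] for the weak Arnt2 island. Each of the 16 intervals, from the exact conditional distribution of the reads in both islands, included 1, and they are wide enough to allow differences of more than 1.5-fold.

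Between starts only, the Npas4 island stood at 1.35 times the fold of Arnt2 [0.595 to 3.03], 0.944 times that of Npas2 [0.411 to 2.14] and 0.793 times that of Npas3 [0.348 to 1.78]. IP density at the starts was 30.4 reads per kb at Npas4, 32.9 at Arnt2, 26.4 at Npas2 and 26.5 at Npas3. The folds of these 4 islands, 1.70 to 2.89, are set beside a median of 1.79 over the 3631 KCl islands that cover a protein-coding start. Npas4 exceeded 83.5% of those islands by fold, Arnt2 41.0%, Npas2 87.8% and Npas3 95.1%. These ranks leave out counting error. The Npas4 interval, 1.38 to 3.97, spans the lower and upper quartiles of those islands, 1.57 and 2.09.

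Within called islands, and with those touching each gene pooled, enrichment was 2.59-fold at Npas4, 1.94-fold at Arnt2 [1.47 to 2.58], 2.89-fold at Npas2 [2.22 to 3.80] and 2.56-fold at Npas3 [2.05 to 3.23]. Npas4 over the others gave 1.34 [0.913 to 1.95] for Arnt2, 0.898 [0.618 to 1.30] for Npas2 and 1.01 [0.718 to 1.43] for Npas3. The pooled islands covered 9.4 kb at Npas4, 5.4 kb at Arnt2, 8.6 kb at Npas2 and 11 kb at Npas3. Each island was listed because its IP reads exceeded control, so these ratios describe the called islands and not the whole genes.

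**Figure D3:**
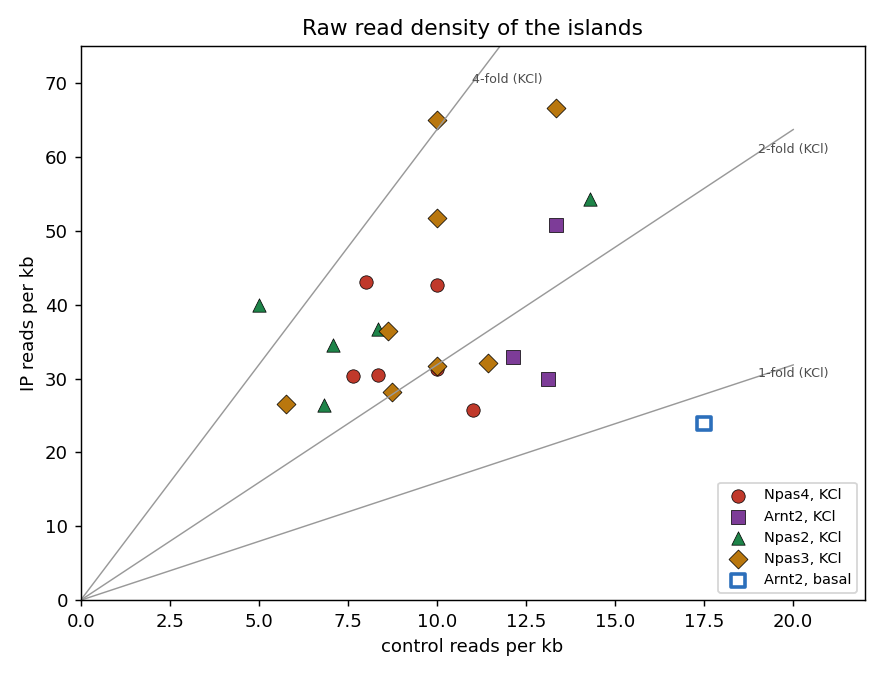
IP reads per kb against control reads per kb for each KCl island of Npas4, Arnt2, Npas2 and Npas3, and for the basal Arnt2 island (open square), whose fold has a different library constant. Grey lines mark 1-, 2- and 4-fold for the KCl library. Npas4 islands lie among those of the other genes, and the 3 Arnt2 islands have 12.1 to 13.3 control reads per kb, more than any Npas4 island.

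Most of the genes placed downstream of NPAS4 by earlier work in rodent neurons carried islands after KCl. Of 8 such genes, 6 had one at a gene end, against 25.2% of all genes, and 0 had a basal one there (0.411% of all genes). Scg2, the secretogranin II gene, had 217 IP and 35 control reads (3.89-fold [2.72 to 5.74]). Syt10, which encodes a synaptotagmin of secretory vesicles, had 49 IP and 8 control reads (3.85-fold [1.81 to 9.41]). Nptx2, the gene of a pentraxin at excitatory synapses, had 48 IP and 11 control reads (2.74-fold [1.40 to 5.85]), and the potassium channel gene Kcna1 had 85 IP and 23 control reads (2.32-fold [1.45 to 3.86]). Bdnf, the neurotrophin gene, had 240 IP and 79 control reads (1.91-fold [1.47 to 2.49]), and the kinase gene Plk2 had 160 IP and 62 control reads (1.62-fold [1.20 to 2.21]). At a fold of at least 2, 4 of the 8 kept an island at a gene end. The share of all genes was not counted for this cut at gene ends. No KCl island lay in or within 10 kb of Rerg or Frmpd3. Cortical neuron markers had as many or more, with 7 of 8 at a gene end and 4 of 8 at a fold of at least 2. These counts are therefore not particular to the listed genes downstream of NPAS4.

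Of 13 further genes with bHLH-PAS domains, 4 carried a KCl island at a gene end, near the 25.2% of all genes, and 0 carried a basal one (0.411% of all genes). They were the clock factor gene Clock (1.47-fold [1.01 to 2.17]) and the genes of the nuclear receptor coactivators Ncoa1 (1.46-fold [0.965 to 2.25]), Ncoa2 (2.57-fold [1.75 to 3.88]) and Ncoa3 (3.38-fold [1.57 to 8.31]). With the gene body and 10 kb around it counted, 7 of 13 had a KCl island, where 38.9% of all genes did. Bmal1, Sim2 and Hif1a were those added, and Bmal2, Sim1, Ahr, Ahrr, Hif3a and Epas1 had none. A basal island lay in or within 10 kb of Bmal1 (1.68% of all genes had one), with 66 IP and 44 control reads (1.70-fold [1.15 to 2.56]).

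The genes likest to Npas4 were sought among 5265 protein-coding genes that had a KCl island at an end and no basal island within 50 kb, by distance in log2 fold and log2 IP reads per kb of the island with the largest fold there. For Npas4 this was the island 11.4 kb upstream. Ncoa3 and LOC115489489, which share an island, and Ssbp1 had the same 43 IP and 8 control reads over the same width. Ppp2ca, a phosphatase subunit gene, followed (109 IP and 20 control reads, 3.42-fold [2.11 to 5.82]), and then the coat colour gene a, also called nonagouti (68 IP and 13 control reads, 3.29-fold [1.80 to 6.48]). Likeness of this kind rests on 1 library and on small counts.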

How the data were processed

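BRG1/BRM ChIP-seq islands were analysed for 2 of 4 samples, the KCl and basal IP libraries. The submitters' processing notes name BWA, mm10 (GRCm38) and SICER 1.0. Windows of 200 bp, gaps of 600 bp and an FDR limit of 0.01 are given in the deposited file names. The names also carry the tag rmdp, which may stand for removal of duplicate reads before counting. The authors deposited for each island raw counts of IP and control reads, a p-value and an FDR (adjusted p-value) against control, and a fold, the ratio of the counts divided by a library constant (1.59 for KCl and 0.880 for basal, recovered here). Which input served as control is not given in the sources used here.

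Positions are 1-based. Genes were 21887 nuclear protein-coding genes of RefSeq GRCm38.p6, and starts came from its promoter table. Transcripts were not used, so islands were not placed in exons, introns or UTRs. Islands were matched to windows by an overlap of at least 1 bp with Python 3.11.15, and intervals used SciPy 1.17.1. The functions were tested on simulated data. The members, lists and tests were chosen with earlier results of these data known. Named genes were the 6 members with their islands, the genes nearest to other islands in the windows, from each list the 4 highest at most by KCl fold at a gene end (2 kb to either side), those with a basal island, and the 5 likest to Npas4. Names outside this rule were chosen after their values were seen: Bdnf, Plk2, Rerg and Frmpd3, the bHLH-PAS genes without an island at a gene end, Zc3h4, Brms1, Gm51419 and Gm35614, and the genes with 4 or more islands around the start.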

Additional observations from a re-analysis of the deposited data

How the results depend on the processing

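No paired analysis was possible because each condition had 1 IP library. Of 91 alternative values, 78 stayed within 1.5 times the main count or inside its interval. Many of these could not move, being stricter rules or narrower windows applied to a count of 0. Among them was also the raw read ratio of the Npas4 start island, 3.65 without library correction. The tally is therefore no measure of robustness. The basal island at Arnt2 was lost at an FDR of at most 1e-05 and at a fold of at least 2, which left 0 basal islands at the 6 genes under either rule. KCl islands at Arnt2 fell in number to 1 under each of these rules and when the interval of the fold had to lie above 1, and Npas3 kept 5 of 8 at the stricter FDR. Of the 13 bHLH-PAS genes, 7 had a KCl island in the gene or within 10 kb and 1 a basal one. Those with one at a gene end after KCl numbered 2 at the stricter FDR and 2 at a fold of at least 2. The shares of all genes at these cuts were not counted for gene ends. The number of members with a KCl island at a gene end ran from 3 to 4 under its alternatives. The fold of the Npas4 start island exceeded that of 5 of the 16 other islands, and in its place the Npas4 island with the largest fold, an alternative chosen after seeing the data, exceeded 14. With a pseudocount of 1 the Npas4 start island was 2.21-fold enriched. Total depth is unknown, and few reads per island limit any ranking by fold.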
